A study of Homo sapiens with 7 samples.

Results

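The subtelomeric regions of the human autosomes were followed through a cardiac differentiation, in cells with and without the TET enzymes. They were taken as 1 kb bins that hold 5 or more CpGs with 10 or more reads in all 7 libraries, both strands summed. A bin had to lie within 2 Mb of the last measured base of its chromosome, or within 2 Mb of the first measured base. The latter side was not used on chromosomes 13, 14, 15, 21 and 22, whose short arms are not measured here. The rule took 13472 of 85087 measured bins, and of 83355 on autosomes (16.2%), at 39 chromosome ends, 17 on short (p) and 22 on long (q) arms. It uses position and coverage and no methylation value.

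The line used, HUES8, is an established line of human embryonic stem cells, here as wild type (WT) and as a triple knockout (TKO) of the genes TET1, TET2 and TET3. Both were differentiated with the Wnt pathway activator CHIR99021 followed by the Wnt antagonist IWP2, and sampled on day 0 as stem cells (SC), on day 3 as cardiac mesoderm (CME) and on day 8 as cardiac progenitors (CP). WT cells were also sampled as beating cardiomyocytes (CM, day 14), after a spell in glucose-free lactate medium that the earlier stages had not met; per the series text TKO cells do not reach that stage. Methylation was read by enhanced reduced representation bisulfite sequencing, in which unmethylated cytosine is read as T, and the level is the percent of reads that show C. Each group is 1 library, so no difference can be set against the spread of replicates. Fisher's exact tests here compare 2 libraries and cover counting error only, while the limma fit and the permutation tests use the 3 stages, which are not replicate cultures. The sources used here do not say whether the TKO line is 1 clone. The files hold neither expression nor sequence, so neither the stages nor the knockout were checked.

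Subtelomeres lie between the telomeric repeats and the body of the chromosome. They are rich in genes, GC and CpG islands, and near the very end they hold blocks of sequence copied between chromosomes. In pluripotent cells DNA methyltransferases methylate most CpGs outside islands, and TET enzymes oxidise 5-methylcytosine, a step towards its removal. TET loss in embryonic stem cells has been linked to altered subtelomeric methylation and telomere length, as background to the comparisons that follow.

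Promoter sequences of 6 subtelomeric genes are shown because they carry the range of outcomes. DMRT1, a transcription factor of sex determination, and VENTX, a homeobox factor, gained methylation in TKO cells at all 3 stages. CHLSN gained it mainly at CP. MIR1-1HG, the host gene of the muscle microRNA miR-1, and TNFRSF18, a receptor of T cell co-stimulation, lost methylation in WT cells at CP and CM. TERT, the catalytic subunit of telomerase, stayed low. Each sequence runs 5′ to 3′ from 250 bases before to 50 after the start, from RefSeq on GRCh38.p14, and capitals mark CpGs with 10 or more reads in all 7 libraries. Positions of the outer measured CpGs are given on hg19, the build of the files.
DMRT1 (chr9:841464-841737, + strand): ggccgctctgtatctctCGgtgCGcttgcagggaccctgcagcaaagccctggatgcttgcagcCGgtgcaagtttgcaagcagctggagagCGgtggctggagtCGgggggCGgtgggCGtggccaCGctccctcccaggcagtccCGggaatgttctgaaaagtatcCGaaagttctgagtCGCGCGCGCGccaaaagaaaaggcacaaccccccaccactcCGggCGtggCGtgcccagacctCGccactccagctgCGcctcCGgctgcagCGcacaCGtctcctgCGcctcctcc
VENTX (chr10:135051219-135051402, + strand): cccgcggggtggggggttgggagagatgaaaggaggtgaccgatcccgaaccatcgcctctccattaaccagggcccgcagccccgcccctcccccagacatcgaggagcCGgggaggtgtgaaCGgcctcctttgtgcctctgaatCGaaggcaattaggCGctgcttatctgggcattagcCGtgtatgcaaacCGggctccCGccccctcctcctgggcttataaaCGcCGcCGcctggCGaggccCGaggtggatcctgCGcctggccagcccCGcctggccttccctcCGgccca
CHLSN (chr7:1067967-1068193, - strand): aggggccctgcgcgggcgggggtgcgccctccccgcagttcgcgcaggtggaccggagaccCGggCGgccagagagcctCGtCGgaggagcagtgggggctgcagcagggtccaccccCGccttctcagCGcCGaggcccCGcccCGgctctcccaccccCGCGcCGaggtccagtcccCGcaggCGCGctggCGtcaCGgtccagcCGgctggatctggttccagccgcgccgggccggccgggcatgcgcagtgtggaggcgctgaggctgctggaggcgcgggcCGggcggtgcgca
MIR1-1HG (chr20:61147465-61147683, + strand): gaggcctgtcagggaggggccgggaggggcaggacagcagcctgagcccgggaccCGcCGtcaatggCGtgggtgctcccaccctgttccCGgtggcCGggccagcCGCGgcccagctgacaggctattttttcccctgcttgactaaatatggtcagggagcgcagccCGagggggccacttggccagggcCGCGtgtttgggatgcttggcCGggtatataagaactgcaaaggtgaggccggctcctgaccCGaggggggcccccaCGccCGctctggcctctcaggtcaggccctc
TNFRSF18 (chr1:1141986-1142105, - strand): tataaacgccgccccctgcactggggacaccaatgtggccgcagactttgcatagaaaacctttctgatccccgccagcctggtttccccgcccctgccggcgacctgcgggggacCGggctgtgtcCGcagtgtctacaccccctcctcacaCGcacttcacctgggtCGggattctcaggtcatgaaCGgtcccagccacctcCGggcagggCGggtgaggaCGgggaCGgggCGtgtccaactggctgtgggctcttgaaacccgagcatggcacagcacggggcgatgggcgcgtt
TERT (chr5:1295135-1295431, - strand): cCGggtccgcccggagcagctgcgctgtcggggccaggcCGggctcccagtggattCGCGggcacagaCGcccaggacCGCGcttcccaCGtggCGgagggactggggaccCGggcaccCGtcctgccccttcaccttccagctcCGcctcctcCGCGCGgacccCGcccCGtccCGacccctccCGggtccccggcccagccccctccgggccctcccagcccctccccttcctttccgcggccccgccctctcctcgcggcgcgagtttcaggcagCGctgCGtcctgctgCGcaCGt

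The RefSeq sequence of a miRNA from this host gene, hsa-miR-1-3p, is given with its seed (bases 2 to 8) in capitals. Its expression was not measured here.
hsa-miR-1-3p: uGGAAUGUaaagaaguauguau

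The libraries differed in ways that touch all results. The median coverage of shared CpGs ran from 45 reads in WT SC to 94 in TKO CME, and the median subtelomeric bin held 486 reads in WT SC and 979 in TKO CME, summed over its CpGs. The share of C in mitochondrial CpGs, a reading of cytosine left unconverted, was 1.50% in WT SC and 1.46% in WT CME, against 0.139% to 0.397% in the other 5. The descriptions of those 2 libraries also carry a suffix (BS) that the others lack. These shares are far below the 25 points that a call needs. With every level corrected for its library's share, TKO minus WT over subtelomeric bins was 1.86 points (SC), 1.16 (CME) and 8.30 (CP), in place of 1.50, 0.87 and 8.27. Subtelomeric sequence is partly repeated between chromosomes, and how reads with several matches were treated is not given in the sources used here; its part in any result was not tested.

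Subtelomeric bins were dense on the map and highly methylated. They came to 173 per Mb of window, against 25.7 per Mb over the rest of the measured autosomes, with a median of 10 and 9 CpGs. Averaged over bins, WT libraries read 72.4% (SC), 73.1% (CME), 68.3% (CP) and 68.9% (CM). The TKO libraries read 73.9% (SC), 74.0% (CME) and 76.6% (CP). WT CP and WT CM were thus the 2 lowest libraries and TKO CP the highest. Over the other 69883 autosomal bins the mean was 53.9% in WT SC and 59.1% in TKO CP, between 17.3 and 18.6 points below the subtelomeric mean in each library.

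Most subtelomeric bins stood at either extreme of the scale. In WT SC 69.8% of subtelomeric bins stood over 80% and 16.2% under 20%, against 50.1% and 37.9% of the other bins. A stable state was common. In all 7 libraries 54.9% of subtelomeric bins were over 80% and 11.8% under 20%, while 39.8% and 31.1% of other bins were.

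When other autosomal bins were weighted to the same classes of CpG number and WT SC level, the subtelomeric mean lay close to theirs in every library. The subtelomeric minus matched difference was 0.01 points in WT SC, where matching sets it near 0. It was -0.16 for WT CME, -0.53 for WT CP and -0.59 for WT CM. For TKO it was 0.05 (SC), -0.12 (CME) and -0.27 (CP). TKO exceeded WT in subtelomeric bins by 1.50 points (SC), 0.87 (CME) and 8.27 (CP), and in matched bins by 1.45, 0.83 and 8.01. The genotype change of the subtelomeric minus matched difference averaged 0.12 points over the 3 stages, with p = 0.6 by an exact two-sided permutation test of 3 TKO against 3 WT libraries, for which the smallest possible p is 0.1. Within stages it was 0.045 (SC), 0.043 (CME) and 0.26 (CP), and an exact two-sided permutation of signs within the 3 stages gave p = 0.25, the smallest it allows. After the correction for mitochondrial C the mean was 0.20. Its sign was negative with a 1 Mb window (-0.11), with ends counted equally (-0.26), with matching by WT CME level (-0.021) and with matching by CpG number alone (-1.13), so no direction is given for it.

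**Figure D1:**
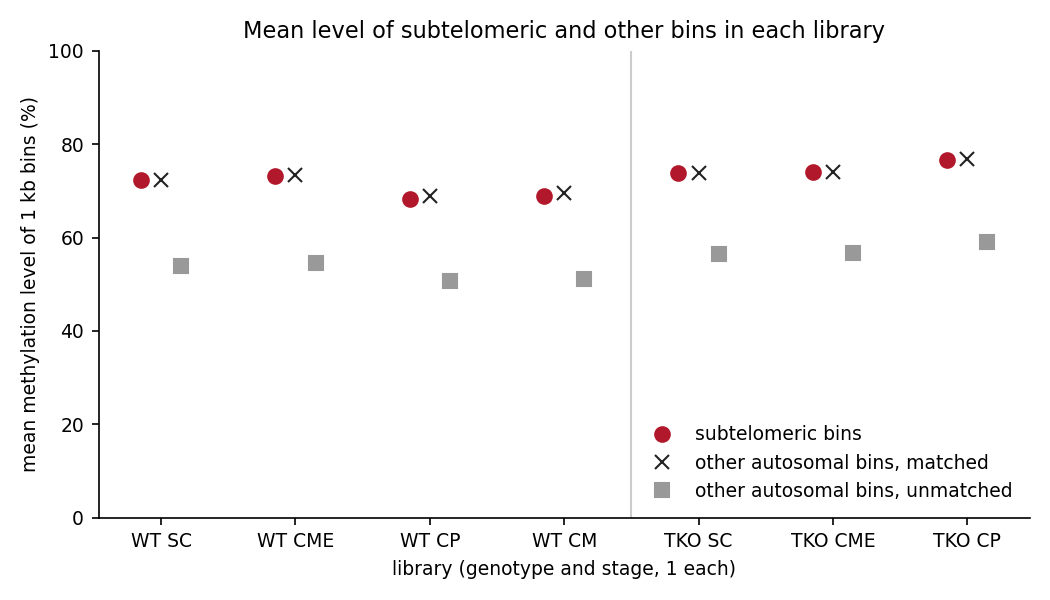
Mean methylation level (%, vertical axis) of subtelomeric bins, of other autosomal bins matched for CpG number and WT SC level, and of other bins unmatched, in each of the 7 libraries. Subtelomeric and matched points differ by at most 0.59 points and the unmatched points lie 17.3 to 18.6 points lower.

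Large differences of single subtelomeric bins were mostly upward in TKO, while the typical bin was slightly lower at SC and CME. The median TKO minus WT difference over subtelomeric bins was -1.37 points (SC), -1.91 (CME) and 2.06 (CP). Over other autosomal bins it was -0.89, -0.97 and 1.19. A bin is called here at a difference of 25 points or more and an adjusted p below 0.01, from Fisher's exact test on its reads with Benjamini-Hochberg adjustment over all 85087 bins. At SC 707 subtelomeric bins were higher in TKO (5.25%) and 16 lower, where 6.26% and 0.119% of all bins were called. At CME 668 were higher (4.96%, all bins 6.02%) and 13 lower (all bins 0.0846%). At CP 1552 were higher (11.5%, all bins 12.0%) and 8 lower (all bins 0.0458%). The matched shares of higher bins were 5.26%, 5.01% and 11.7%, so the subtelomeric shares lay near both backgrounds. In a limma fit of genotype with stage as block, 673 subtelomeric bins were higher in TKO (5.00%, all bins 6.04%) and 7 lower (all bins 0.0388%). With 2 residual degrees of freedom this count depends on the stages and the scale: it was 1019 higher without SC, 1036 higher without CME, and 0 on the logit scale, where 1815 bins had an unadjusted p under 0.05.

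The bins higher in TKO were divided by the stages at which they passed. The 597 subtelomeric bins higher in TKO at all 3 stages (4.43%, all bins 5.46%) had a WT median of 21.3% (SC) and 12.8% (CP), against TKO medians of 80.4% (SC) and 86.8% (CP). These were bins low in WT and high in TKO from the stem cell stage on. A further 897 passed at CP without passing at SC (6.66%, all bins 6.05%). The WT median of these was 75.6% (SC) and 46.2% (CP), and the TKO median 84.1% (SC) and 88.4% (CP). Between SC and CP the WT level dropped in 442 of them, and the TKO level climbed in 30, by at least 25 points and with no test made. Bins high in both genotypes at SC can pass at CP almost only through a lower WT level, so the choice of these bins sets that order and the values are a description.

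Among CpG-dense bins, a larger share was called at the subtelomeres than elsewhere. Of the 1193 with 40 or more CpGs, 168 (14.1%) were higher in TKO CP, against 5.55% of other autosomal bins of that class. The 2 groups started from different levels, with a WT SC mean of 14.8% in subtelomeric and 5.12% in other dense bins. In the sparse class of 5 to 9 CpGs the order was the other way, with 9.54% of 6300 subtelomeric bins and 12.0% of other bins called, and WT SC means of 83.9% and 75.9%. Among bins under 20% in WT SC, 17.4% of 2179 subtelomeric and 12.8% of other bins were higher in TKO CP. No test was made of these shares, since bins of a library are not replicates.

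**Figure D2:**
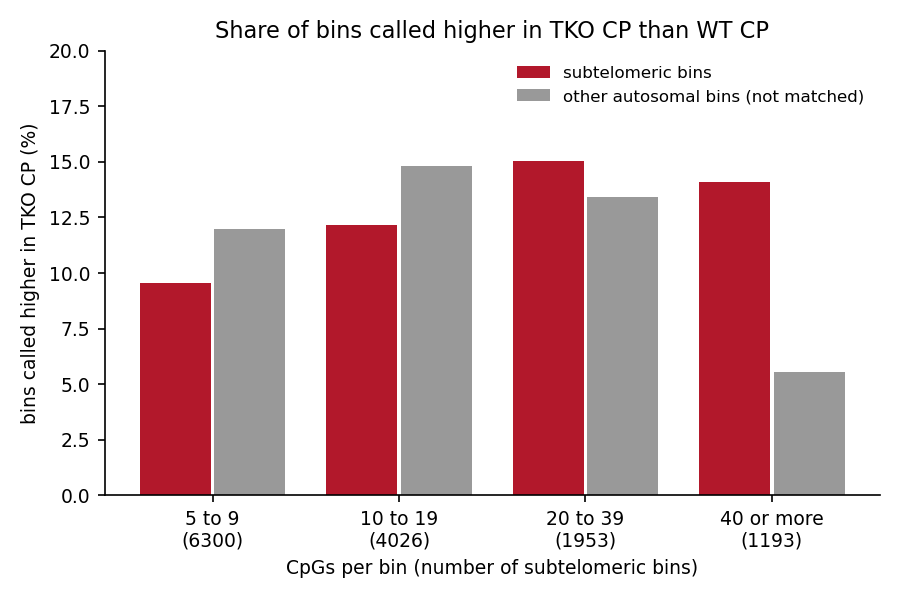
Percent of bins called higher in TKO CP than WT CP (vertical axis) by the number of measured CpGs per bin, for subtelomeric bins and for other autosomal bins without matching. The subtelomeric share is 14.1% in bins with 40 or more CpGs, where the other bins reach 5.55%, and is lower than theirs in the classes of 5 to 9 and 10 to 19 CpGs.

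In the outermost stretch TKO stood lower against matched bins than WT did. The stretch was set after the values by distance had been seen. Its 281 bins within 0.1 Mb of the outermost measured base, at 35 ends, averaged 58.0% (SC), 58.9% (CME), 55.0% (CP) and 55.7% (CM) in WT. The TKO averages were 59.4% (SC), 59.4% (CME) and 61.1% (CP). Relative to matched bins the WT libraries stood at -0.003, -0.10, 0.70 and 0.70 points in that order of stages, and the TKO libraries at -2.45, -2.76 and -3.56. All 3 TKO libraries were thus below every WT library on this scale, and TKO still exceeded WT in the plain level. Matching by the WT SC level holds WT SC near 0 and leaves TKO free. No alternative tried for this stretch matched on a TKO level, so the order is a description.

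Relative to matched bins, the TKO minus WT difference within 0.1 Mb was -2.44 points (SC), -2.65 (CME) and -4.26 (CP). The mean over stages was -3.12. No test is given for it, because the stretch was chosen from these values. It lay at -2.68 without 18p, at -2.82 without 19q and at -3.29 with every end counted equally. Of the 35 ends, 23 lay below their matched value at SC, and 23 and 25 did at CME and CP. From 0.15 to 2 Mb (13024 bins) the same mean was 0.21. Median reads per bin were higher near the end in every library, for example 580 in WT SC, 947 in WT CP and 963 in TKO CP. From 0.15 to 2 Mb they were 484, 699 and 738. Whether this depth bears on the levels was not tested.

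**Figure D3:**
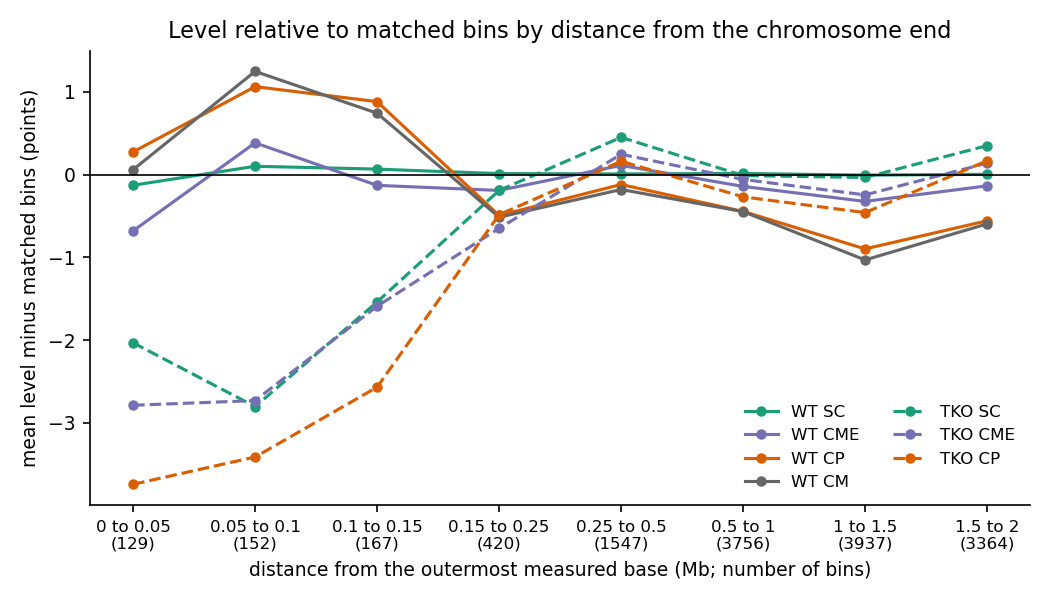
Mean level of subtelomeric bins minus that of matched other autosomal bins (points, vertical axis) by distance from the outermost measured base, with 1 line per library (solid for WT, dashed for TKO). Within 0.15 Mb the 3 TKO lines lie between -1.54 and -3.74 and the WT lines between -0.68 and 1.25, and beyond 0.25 Mb all 7 lines lie between -1.03 and 0.45.

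The bin nearest each end, a median of 0.00102 Mb from the outermost measured base, was usually methylated. Over the 39 ends its level had a lowest value of 0.83%, a median of 88.9% and a highest value of 98.1% in WT SC, and in TKO CP the median was 88.6% and the highest 96.8%. In WT SC 29 of these bins stood over 80% and 7 under 20%, and in TKO CP 26 and 6. An exception to the shared state was the bin nearest the end of 18p, 10001 to 11000 on chromosome 18, close to the start of LINC02564. WT stood there at 86.0% (SC), 88.7% (CME), 79.7% (CP) and 78.6% (CM), and TKO at 65.1% (SC), 57.9% (CME) and 44.6% (CP). All 3 TKO libraries were below all 4 WT libraries there. At 3q the bin nearest the end (197840001 to 197841000) went the other way, with 5.04% to 9.30% in the 4 WT libraries and 47.5% to 58.3% in the 3 TKO libraries. The unmethylated bin at 13q (under 1% in all 7 libraries) was the lowest of the end bins in WT SC and that at 15q (98.1% in WT SC, 94.6% in TKO CP) the highest.

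Chromosome ends differed in how far TKO exceeded WT. At CP the mean TKO level was above WT at all 39 ends, by 0.91 points at 18p to 20.3 at 9p with a median of 8.03. At SC it was above at 30 ends and at CME at 28. By share of bins called higher in TKO CP, the leading ends with 20 or more bins were 9p with 28.2% of 39 bins, 12p with 17.9% of 106 and 20p with 16.8% of 95. The lowest were 18p with 2.33% of 43 bins, 19q with 3.33% of 180 and 8p with 5.79% of 242. Matched shares were 16.6% for 9p, 15.8% for 12p and 16.6% for 20p. For the lowest ends they were 17.3% for 18p, 12.3% for 19q and 7.02% for 8p.

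The 9p end was the least methylated of the 39 in WT SC, at 28.4%, with 25.1% in WT CP and 45.4% in TKO CP. It holds the DMRT gene cluster and KANK1. At 19q the mean was 47.8% in WT SC, 46.6% in WT CP and 48.0% in TKO CP and the genotype difference at CP was -7.30 points relative to matched bins. At 18p it was 47.2%, 46.5% and 47.4%. At CP these 2 ends showed the smallest genotype differences of the 39, 0.91 points at 18p and 1.40 at 19q. At SC they stood at -1.77 and -0.76, where the median over ends was 1.57.

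**Figure D4:**
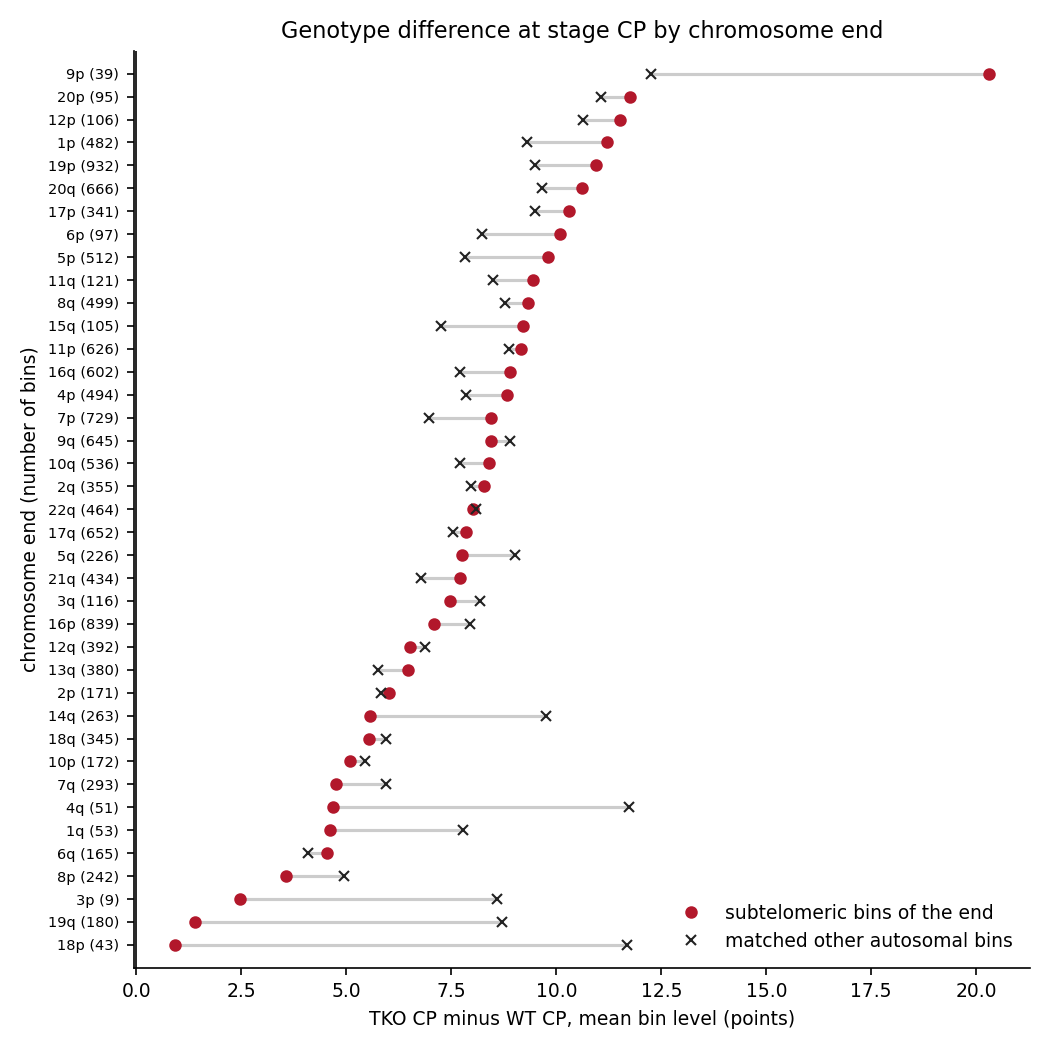
TKO CP minus WT CP difference in mean bin level (points, horizontal axis) for each of the 39 chromosome ends (vertical axis, with the number of bins), beside the difference in matched other autosomal bins. Every end lies above 0, from 0.91 at 18p to 20.3 at 9p, and 18p and 19q lie furthest below their matched value.

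Differentiation of WT cells was accompanied by loss. From WT CME to WT CP 545 subtelomeric bins were lower (4.05%, all bins 3.38%, matched 4.02%) and 2 higher (all bins 0.0294%). From WT SC to WT CM 474 were lower (3.52%, all bins 2.81%) and 9 higher (all bins 0.126%), with a matched share of 3.38% lower. The mean at CP was below that at CME at all 39 ends. In TKO cells 46 bins were higher at CP than at CME (0.341%, all bins 0.772%, matched 0.494%) and 13 lower (all bins 0.0599%), and the mean was higher at 38 of 39 ends. The 474 bins lower in WT CM had WT medians of 82.3% (SC), 81.0% (CME), 41.7% (CP) and 42.3% (CM). In TKO cells the same bins had medians of 85.5%, 85.8% and 88.7%. Of these 474, 419 were called higher in TKO at CP (88.4%), as were 88.8% of all bins lower in WT CM, so the subtelomeric share lay near the background. These 2 comparisons share no library, and WT CM has no TKO counterpart.

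In the bins with the deepest WT loss it was nearly complete. On 21q the bin 46831001 to 46832000 (10 CpGs), near the start of BNAT1 and next to COL18A1, whose product is a basement membrane collagen, read 89.9% (SC), 93.6% (CME), 4.14% (CP) and 4.57% (CM) in WT. Its TKO levels were 90.4%, 87.1% and 92.9%. On 10p the bin 855001 to 856000, between DIP2C and LARP4B, went from 95.5% in WT SC to 12.0% in WT CM, with 91.0% to 95.5% in the 3 TKO libraries. On 15q the bin 101703001 to 101704000 went from 90.4% in WT SC to 7.76% in WT CM, and its nearest placed start, that of CHSY1, is 88752 bases away. On 19p the bin 961001 to 962000 went from 90.0% to 8.03%, in a stretch where RefSeq lists ARID3A and KISS1R, and on 10q the bin 135059001 to 135060000 next to MIR202HG from 79.6% to 3.89%. In all 5 the 3 TKO libraries stayed between 78.2% and 95.5%.

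Losses also came in runs. The longest run of neighbouring bins lower in WT CM, 1986001 to 1992000 on chromosome 11 (5 of 6 measured bins, 98 CpGs), averaged 67.8% (SC), 70.3% (CME), 27.1% (CP) and 24.5% (CM) in WT. TKO stood there at 81.1%, 82.1% and 82.8%. It lies between the placed starts of CTSD, 203844 bases away, and MRPL23-AS1, 22149 bases away. RefSeq lists 13 genes in that interval, among them SYT8, LSP1, PRR33, MRPL23 and the muscle troponin genes TNNI2 and TNNT3. Which of them the run belongs to was not determined. The run at 1292001 to 1298000 on chromosome 1 went from 67.8% in WT SC to 29.7% in WT CM with TKO at 86.0% to 86.4%. That run lies between the placed starts of DVL1 (10203 bases away) and AURKAIP1 (15586 bases away), where RefSeq lists MIR6808 and MXRA8. The run at 953001 to 958000 on chromosome 19, beside the bin at 961001 described above, went from 70.2% to 18.2%, with TKO at 84.2%, 77.6% and 75.0%. Most losses were single: 397 of 430 runs held 1 bin.

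Gains in WT cells were few and are given as the 5 largest. The bin 995001 to 996000 on chromosome 19, close to GRIN3B, a glutamate receptor subunit, was at 13.8% in WT SC and 13.3% in WT CME and at 91.9% and 93.6% in WT CP and CM, with 88.6% to 90.9% in TKO. Averaged over its CpGs instead of its reads its gain was 16.8 points, under the threshold. On 1q the neighbouring bins starting at 249141001 and 249142001, between ZNF672 and ZNF692, went from 17.8% to 61.4% and from 33.7% to 77.9% between WT SC and WT CM, with over 90% in all TKO libraries. The bins at 1289001 on chromosome 1 and 555001 on chromosome 20 gained 33.1 and 29.8 points, the latter 23.0 when averaged over CpGs. All 5 were already higher in TKO SC than in WT SC. They were chosen by a rise from WT SC, which favours a low level there, so this order is a description.

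The longest runs higher in TKO at all 3 stages held many CpGs. Their bins were chosen for TKO levels above WT, so the distance between the genotypes in them is a description. The bins from 134598001 to 134603000 on chromosome 10 (5 bins, 370 CpGs) averaged 13.1% (SC), 13.9% (CME), 8.22% (CP) and 7.32% (CM) in WT. In TKO they averaged 91.0%, 93.2% and 93.4%. RefSeq lists INPP5A and NKX6-2, a homeobox factor of neural development, between the placed starts that flank this run. The run from 1564001 to 1568000 on chromosome 1 (4 bins), with the start of MMP23B, a matrix metalloproteinase gene, held 6.66% to 12.5% in WT and 84.5% to 91.0% in TKO. The run from 135048001 to 135053000 on chromosome 10, with the start of VENTX, held 2.44% to 5.13% in WT and 45.0%, 41.2% and 67.1% in TKO. Of 445 runs 336 held 1 bin.

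The largest single gains in TKO reached nearly full methylation from nearly none. At SC they were a bin on 8q 1.19 Mb from the end (2.90% in WT, 91.0% in TKO), the bin at 134601001 in the run on chromosome 10, the bin at 842001 on chromosome 9 beside the DMRT1 start (6.74% and 94.0%), the bin at 158656001 on chromosome 7 (6.92% and 93.4%) and the bin at 1624001 on chromosome 6 (3.35% and 88.7%). The last lies 14351 bases from the start of FOXC1, a forkhead factor of mesoderm and heart development, whose own promoter was at or under 0.53% in all 7 libraries. At CME the bins at 134599001 on chromosome 10, 841001 on chromosome 9 and 61049001 on chromosome 20 joined them. At CP the leading gain was at 133995001 on chromosome 11, with 1.07% in WT and 96.8% in TKO.

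A stretch of chromosome 20 took part at both CME and CP. Its bins at 61050001 and 61051001, with 89 and 86 CpGs, were at 1.36% to 3.97% in all WT libraries. In TKO they were at 55.0% and 57.5% at SC, 58.9% and 64.0% at CME, and 94.6% and 94.4% at CP. The neighbouring bin at 61049001 was already at 88.0% in TKO SC. RefSeq lists GATA5, a cardiac transcription factor, and RBBP8NL between the placed starts on either side, CABLES2 and LOC124904947.

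Bins called lower in TKO were rare. The bin 114428001 to 114429000 on chromosome 13 (6 CpGs) read 85.4% (SC), 80.2% (CME), 48.5% (CP) and 64.8% (CM) in WT, against 10.4%, 5.56% and 8.17% in TKO. Its TKO minus WT difference at CP was -40.3 points from summed reads and -63.2 averaged over CpGs. The bin 107095001 to 107096000 on chromosome 14 was at 57.1% to 73.9% in WT and at 34.7%, 32.6% and 21.3% in TKO. On 18p the bin 97001 to 98000 was at 68.3% to 79.3% in WT and at 28.6% to 40.4% in TKO. All 3 bins were lower in every TKO library than in every WT library. Their choice by the largest falls favours that order, so it is a description. At CP 3 further bins were among the 5 largest falls: 135333001 on chromosome 10 (46.1% in WT, 6.24% in TKO), 141021001 on chromosome 9 (80.5% and 42.5%) and the end bin of 18p. At SC and CME the list also held bins on 8q about 1.93 Mb from the end and 1204001 on chromosome 2. In those 8q bins and at 1204001 the WT level itself was lower at CP than at CME, so that TKO was below WT in the early stages and near or under it later. Of subtelomeric bins 4 were called lower in TKO at all 3 stages (0.0297%, all bins 0.0247%), a share near the background.

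Gene starts were described in the same way. No promoter sequence of chromosome 8 was used, so the ends 8p and 8q are missing from all promoter counts and shares. Of 12280 promoters that could be placed on the measured CpGs and held 5 or more of them, 1016 were subtelomeric. They were mostly unmethylated: 804 (79.1%) stood under 20% in all 7 libraries, against 91.5% of the other 11264. The median over subtelomeric promoters was 1.33% (SC), 1.34% (CME), 0.16% (CP) and 0.17% (CM) in WT, and 0.38%, 0.42% and 0.31% in TKO. The 2 highest medians belong to the 2 libraries with the most C in mitochondrial CpGs.

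The share of promoters called higher in TKO was larger among subtelomeric than among all promoters. At SC there were 66 (6.50%, all promoters 3.54%), at CME 65 (6.40%, all 3.49%) and at CP 93 (9.15%, all 5.07%). Matched for CpG number and WT SC level the other promoters gave 4.81%, 4.72% and 7.26%. Whether the excess over the matched shares is more than variation among promoters was not tested. Lower in TKO were 2 at SC (all 0.138%), and 0 each at CME and CP by Fisher's exact test (all 0.114% and 0.106%). Of the 93, 54 were under 20% in all 4 WT libraries, and 11 of these were over 80% in all 3 TKO libraries. The same split was not made for the 622 called among all promoters, so it is not read as particular to subtelomeres. In WT 12 promoters were lower in CM than SC (1.18%, all 0.399%) and 21 lower in CP than CME (2.07%, all 0.529%), with matched shares of 0.974% and 1.04%. By the same exact test 0 were higher in WT CM (all 0.0244%).

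The 6 promoters printed above were all chosen with their values in view, DMRT1, VENTX, TNFRSF18 and TERT out of the gene lists and CHLSN from a bin named for its large gain. The DMRT1 promoter (24 CpGs) read 2.72% (SC), 2.01% (CME), 0.86% (CP) and 1.25% (CM) in WT, and 87.3% (SC), 91.2% (CME) and 90.4% (CP) in TKO. No single CpG of it exceeded 10.7% in any WT library or fell under 68.0% in any TKO library. The gain thus covered the whole measured promoter from the stem cell stage.

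VENTX and CHLSN gained methylation in steps. The VENTX promoter (15 CpGs) was at 1.40% to 3.22% in the 4 WT libraries and at 47.3%, 46.3% and 84.1% in TKO. The CHLSN promoter shown (19 CpGs) read 2.40% (SC), 2.54% (CME), 0.52% (CP) and 0.47% (CM) in WT, and 17.3%, 19.7% and 91.3% in TKO. At 18 of its 19 CpGs TKO CP was 25 points or more above WT CP, and the exception was the CpG downstream of the start. The other 2 placed CHLSN promoters stood at or under 1.46% in all 7 libraries and were not called at any stage.

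MIR1-1HG and TNFRSF18 lost methylation in WT and stood high in TKO. The MIR1-1HG promoter (14 CpGs) read 58.0% (SC), 65.8% (CME), 10.1% (CP) and 4.54% (CM) in WT, and 84.5%, 86.5% and 86.1% in TKO. WT CM was lower than WT SC by 25 points or more at 11 of 14 CpGs (adjusted p = 2.64e-104 for the promoter by Fisher's exact test). The TNFRSF18 promoter (10 CpGs) was at 44.5%, 47.8%, 17.3% and 17.6% in WT and at 89.1%, 86.9% and 92.5% in TKO. In both, the TKO libraries were above WT already at SC. All 12 promoters lower in WT CM stood over 80% in TKO SC and TKO CP, among them SSTR5, a somatostatin receptor (86.3% in WT SC, 40.6% in WT CM), GRK1, a rhodopsin kinase (82.1%, 53.2%), and CFD, complement factor D (82.7%, 55.2%). The windows of SSTR5 and SSTR5-AS1, both among the 12, overlap. The count over 80% in TKO was not made for all 49 promoters lower in WT CM, so it is not read as particular to subtelomeres.

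**Figure D5:**
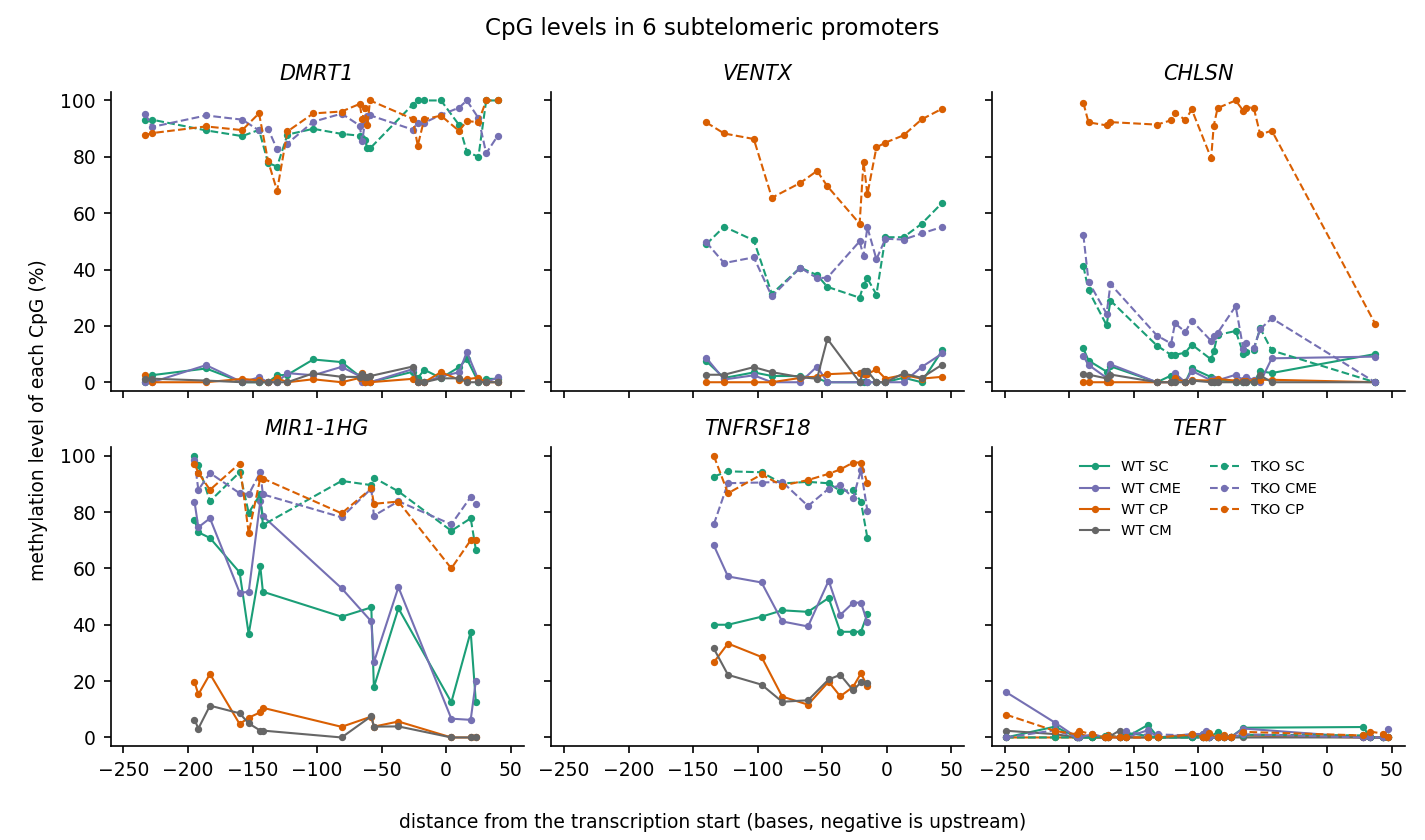
Methylation level of each measured CpG (%, vertical axis) against its distance from the transcription start in bases for 6 subtelomeric promoters, with 1 line per library (solid for WT, dashed for TKO). In DMRT1 the WT lines stay at or under 10.7% and the TKO lines at or over 68.0%, MIR1-1HG is low in WT CP and CM, and TERT stays at or under 16.1% in all 7.

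A small set of subtelomeric promoters gained methylation within TKO cells between CME and CP. There were 13 such promoters of 11 genes (1.28%, all promoters 0.757%, matched 0.727%), while 0 were lower by Fisher's exact test (all 0.0570%), and all 13 also exceeded WT at CP. The 13 are not all separate regions. The windows of SLC9A3 and LOC107986395 overlap, as do those of WDR90 and LOC105371038 and those of the TYMP promoters. Besides VENTX and CHLSN they included SLC9A3, a sodium and proton exchanger, at 52.4%, 53.9% and 91.7% in the 3 TKO stages and at 1.06% to 3.75% in WT. HBM, a globin gene of the alpha cluster, stood at 40.8%, 45.1% and 91.0% in TKO and at 2.31% to 5.75% in WT. The outer of 2 placed promoters of ARHGAP45, a GTPase-activating protein, stood at 13.5%, 12.4% and 91.4% in TKO and at 1.08% to 3.47% in WT. NTSR1, a neurotensin receptor, stood at 60.5%, 57.0% and 91.4% in TKO. All promoters named in this set were chosen by their values.

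The gene lists placed these promoters among their kind. Of 14 measured developmental transcription factors of 26 listed, 2 were higher in TKO at each stage, DMRT1 and VENTX, where 3.54% (SC), 3.49% (CME) and 5.07% (CP) of all promoters were called, and 12 stood under 20% in all 7 libraries. The latter include FOXF2, IRX4, NFATC1, SALL3 and DMRT2, neighbour of DMRT1, which reached 3.52% in TKO CP. UNCX and UTF1, a pluripotency factor, stood at 13.8% and 12.6% in TKO CP and at 0.37% and 1.07% in WT CP, under the 25 points of a call. Of 14 measured signalling genes of 24 listed, 3 were higher at each stage, against the same shares of all promoters. They were TNFRSF18, DRD4, a dopamine receptor, at 1.34% to 2.92% in WT and 35.7% to 42.4% in TKO, and SPON2, an extracellular matrix protein, at 3.66% to 9.70% and 82.7% to 93.2%. FGFRL1, a decoy receptor for FGF, was at 0.80% in WT CP and 22.3% in TKO CP. NOTCH1, JAG2, FGFR3, AXIN1 and HRAS were at or under 1.71% in all 7 libraries.

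The remaining lists held no call. Of 5 measured channels and transporters of 15 listed, 4 were under 20% throughout, and SLC6A19, an amino acid transporter, was at 70.6% to 92.4%. Of 8 measured genes tied to telomeres or subtelomeric repeats of 16 listed, TERT read 0.93% (SC), 1.28% (CME), 0.18% (CP) and 0.21% (CM) in WT, and 0.18%, 0.41% and 0.74% in TKO. RTEL1, a telomere helicase, was at 77.6% to 93.6% at the placed start, and DUSP22, whose region is copied elsewhere in the genome, at 16.1% to 27.5%. All 16 measured housekeeping promoters of 20 listed, such as TBP, SDHA and POLRMT, were under 20% in all 7 libraries. None of the 8 imprinted genes listed had a placed and measured promoter. Over all measured members of a list the median TKO CP minus WT CP difference ran from 0.02 to 1.35 points, and over all 12280 promoters it was 0.14.

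Sequence features of the promoters are given as a description. The telomeric word TTAGGG, searched on both strands as TTAGGG or CCCTAA, was in 5.22% of the 1016 subtelomeric promoters, in 6.66% of the other 11264 and in 6.54% of all 12280. The median GC content was 73.3% in subtelomeric and 69.7% in other promoters, and the median number of CpGs in the 300 bases 37 and 30. At the inner limit of the windows nothing marked the boundary: the 594 bins of the last 0.1 Mb inside averaged 74.6% in WT SC and 78.8% in TKO CP, and the 592 of the next 0.1 Mb outside 75.8% and 79.7%.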

How the data were processed

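Alignment and methylation extraction were done by a core facility, per the labels' protocols, on hg19, per the submitters' processing notes; neither aligner nor caller is given in the sources used here. In the deposited files each line is 1 CpG cytosine of 1 strand. It holds coverage, which is a raw read count per the file headers and values (lowest count 10), and the percent of reads showing C and T per the file headers. Groups follow the titles. For WT CM the series text gives day 14, and the source label names CME.

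Reads of both strands were summed per 1 kb bin with 5 or more CpGs of 10 or more reads in all 7 libraries. Each bin's methylated and unmethylated reads were compared by a two-sided Fisher's exact test, with Benjamini-Hochberg adjustment over 85087 bins. Reads spanning several CpGs count several times and PCR copies are not independent, so p-values can be too small. Other autosomal bins were weighted to the same classes of CpG number and WT SC level. TKO and WT were also compared in limma 3.58.1 (R 4.3.3) on arcsine square root levels with stage as block. In a simulation of TKO CP minus WT CP over 85087 bins, the Fisher test recovered 99 of 100 bins changed by 30 points and called 0 of 84887 unchanged bins. The simulation of the limma fit gave 97 of 100 and 0 on the arcsine scale, and 78 of 100 and 0 on the logit scale. Simulated reads were independent draws, from the same level in all libraries for an unchanged bin. They lack the dependence between reads named above and any spread between libraries. The 0 calls thus say nothing on false calls in the real data.

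RefSeq promoter sequences, on GRCh38.p14, were placed by CpG spacing: every CpG in the files within the 300 bases had to fall on a CG of the sequence, with 8 or more matches. This placed 13328 of 20419 autosomal promoters with 8 or more CGs (65.3%), and a check against a wrong chromosome placed 15. Promoter sequences of chromosome 8 were not used. RefSeq's order of genes gave neighbours, and no reference coordinate was used. Promoters were tested like bins, with adjustment over 12280.

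Named bins are the 5 largest rises and falls among called subtelomeric bins per comparison, the 3 leading runs of each kind (gaps of at most 1 kb), the bin nearest each end, and the 3 ends with the highest and lowest share called in TKO CP. The regions, gene lists and tests were chosen with earlier results of these data known. Computation used Python 3.11.15 with scipy 1.17.1, numba 0.67.0, numpy 2.4.6 and pandas 2.3.3, and figures matplotlib 3.10.9.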

Additional observations from a re-analysis of the deposited data

Results flagged for a closer look

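The mean level of subtelomeric bins moved in opposite directions between CME and CP in the 2 genotypes. It changed by -4.80 points in WT and by 2.60 points in TKO, and matched bins changed by -4.43 and 2.75. With 1 library per genotype and stage, this difference between the genotypes was not tested.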

How the results depend on the processing

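The share of subtelomeric bins called in either direction stayed within 1.5 times under the windows, coverage and CpG minimums and level definitions tried, except in the limma fit, where it moved from 5.05% to 8.05% with 10 or more CpGs per bin, 7.62% without the stage SC, 7.75% without the stage CME and 0% on the logit scale (no adjusted p below 0.01; 1815 bins with an unadjusted p under 0.05). At a difference of 40 points the shares were 3.02%, 2.78% and 6.81% for TKO minus WT at SC, CME and CP, 1.23% for WT CP minus WT CME, 1.27% for WT CM minus WT SC and 0.119% for TKO CP minus TKO CME. The subtelomeric minus matched change between genotypes reversed from 0.12 to -0.11 with a 1 Mb window, -1.13 when matched by CpG number alone, -0.021 when matched by WT CME level and -0.26 with ends counted equally, and was 0.20 after correction for mitochondrial C; the cause was not tested. With stage as a replicate block, chosen after seeing the data, it stayed 0.12, with p = 0.25 by exact permutation of signs within stages, the smallest possible. Alternatives chosen after seeing the data gave promoter shares at 40 points of 4.23% (SC), 3.84% (CME) and 0.394% (WT CM minus WT SC), the last 0.379% with a 1 Mb window and 0.691% with 10 or more CpGs. For the outermost 0.1 Mb the value ran from -3.43 to -2.29 over 9 alternatives, all matched on a WT level. Of 112 recomputed values of named bins, 110 kept their call, and 8 more could not be recomputed at 20 reads. The bin at 114428001 on chromosome 13 moved from -40.3 to -63.2 at CP when averaged over CpGs. The limits are the single libraries, Fisher tests that cover counting error only, the promoters left unplaced and a build that differs between files and sequences. A further limit is that promoters of chromosome 8 were not used.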
